A study of Homo sapiens with 34 samples.

Results

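The olfactory receptor genes of chromosome 11 were examined for 5 histone marks in KELLY cells. They were the protein-coding genes of that chromosome in GENCODE release 44 on hg38, chosen by symbol. The symbol is OR followed by a family number, 1 or 2 letters and a number, with or without a suffix. In all, 178 genes among 19970 protein-coding genes on chromosomes 1 to 22 and X met this rule. A few of the 178 carry the suffix P but are protein-coding in that release. KELLY is a human neuroblastoma cell line. Its cells carried a lentiviral vector that expresses green fluorescent protein and, once doxycycline is given, a hairpin RNA targeting RUNX1T1, a transcriptional corepressor, and the comparison asked how lowering it changed the histone marks. One group was treated with DMSO and the other with Doxycycline, each for 72 h, and both carried the hairpin. The labels did not give which hairpin was used, and no doxycycline-treated cells without a hairpin were analysed here, so effects of the drug and of the hairpin cannot be told apart. Each mark had 3 libraries per treatment, which gave 30 peak lists. The labels did not say whether replicates came from separate cultures, so p-values measure the spread between these libraries, which may be technical.

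Olfactory receptors are G protein-coupled receptors that bind odorants, and each sensory neuron of the nose expresses a single receptor gene from a single allele. Class I receptors (families OR51, OR52, OR55 and OR56) resemble those of fish and lie together on chromosome 11, whereas class II receptors are found in clusters on many chromosomes. H3K27me3 is laid down by Polycomb repressive complex 2 at silent developmental genes, H3K4me3 marks active or poised promoters, H3K27ac marks active promoters and enhancers, and H3K4me1 and H3K4me2 mark enhancers and the flanks of promoters.

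A gene was scored as carrying a mark in a list when a peak lay within 1 kb of any of its annotated start sites, and as bare when no list of the 5 marks from the same treatment and replicate number had such a peak. A missing peak means that the signal did not pass the caller's threshold, not that the mark was absent. Peaks were called at 57.0 to 63.4 M reads in doxycycline and at 71.9 to 81.1 M reads in DMSO, the smaller of the ChIP and input totals. The 6 H3K27me3 lists were of 2 kinds. In 3 of them (DMSO replicate 1, doxycycline replicates 1 and 2) the caller had estimated fragments of 256, 265 and 280 bp and the median peak was 1878 to 1979 bp wide. In the other 3 (DMSO replicates 2 and 3, doxycycline replicate 3) the estimates were 105 to 112 bp, close to the read length of 101 bp, and the median peak was 410 to 570 bp wide. They are called the long-estimate and the short-estimate lists here. Of the sympathetic noradrenergic markers, PHOX2A, HAND2, GATA3, ISL1, TH, DBH and CHGA each carried H3K4me3 and H3K27ac in all 6 libraries. None of 7 markers of olfactory sensory neurons did so, against 62.4% of all protein-coding genes. Of these 7, CNGA4 carried H3K4me3 in all 6 libraries and H3K27ac in 2 DMSO and 3 doxycycline libraries. OMP carried H3K27ac in 3 DMSO and 2 doxycycline libraries without H3K4me3.

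Within 1 kb of their start sites, 99 of the 178 chromosome 11 receptor genes (55.6%) were bare in all 30 lists, against 5.60% of all protein-coding genes. Where a mark was present it was nearly always H3K27me3. With a window of 2.5 kb, 80 (44.9%) were bare and 95 had H3K27me3 in at least 1 list. Within 1 kb, H3K27me3 lay at 77 of them in at least 1 list. It lay at 8 (4.49%) in all 6 libraries, against 20.1% of all protein-coding genes. No receptor gene carried H3K4me3 or H3K27ac in any list, whereas 71.9% and 64.2% of all protein-coding genes carried them in all 6 libraries. A mark other than H3K27me3 was found in 3 of 3 libraries of a treatment at none of them, against 80.0% of all protein-coding genes.

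In DMSO, H3K27me3 was found at 50, 12 and 21 of the 178 genes in replicates 1, 2 and 3. In doxycycline it was found at 67, 38 and 18. The 3 long-estimate lists held the 3 highest counts, in both treatments. The bare share was 70.8, 93.3 and 88.2% in the DMSO sets and 61.2, 78.7 and 89.9% in the doxycycline sets, a set being the 5 lists of one treatment and replicate number. Of the 77 genes with H3K27me3, 45 had it in long-estimate lists only, 4 in short-estimate lists only and 28 in both kinds. Of the same 77, 25 had it in a single list, which was doxycycline replicate 1 for 17 of them. The map of peaks by gene and list shows these counts along the chromosome.

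**Figure D1:**
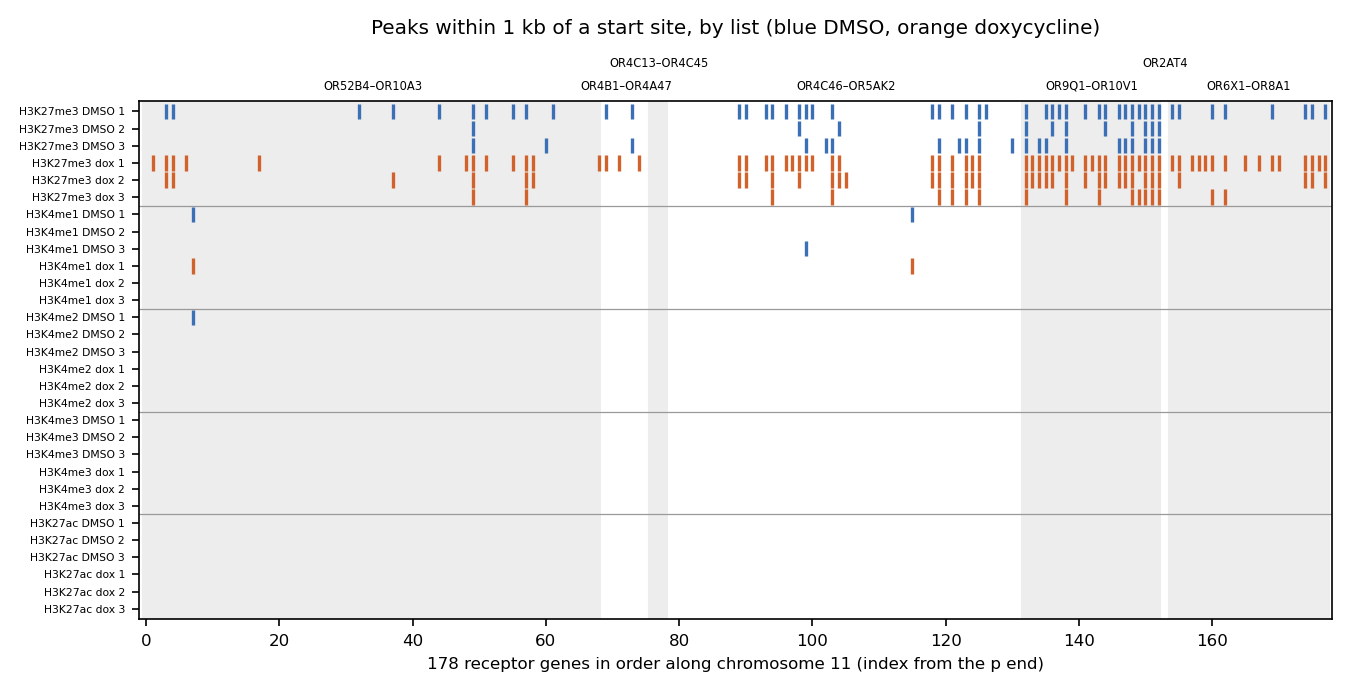
Each column is 1 of the 178 receptor genes in chromosome order and each row is 1 of the 30 peak lists; a tick marks a peak within 1 kb of a start site, and the alternating grey and white blocks are the clusters named above them. Ticks are nearly confined to the 6 H3K27me3 rows and are densest in the OR9Q1 to OR10V1 cluster, while the H3K4me3 and H3K27ac rows are empty.

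Joining neighbouring receptor genes with at most 1 Mb between their gene bodies gave 6 clusters and 1 gene apart, OR2AT4. Together the clusters spanned 8.83 Mb, or 6.54% of the chromosome. The one nearest the p end, OR52B4 to OR10A3 (chr11:4367263-7941708), held 69 genes, among them all 57 class I genes, and surrounds the beta-globin genes. H3K27me3 lay at 10, 1 and 2 of the 69 in DMSO and at 13, 6 and 2 in doxycycline. In all, 51 of the 69 (73.9%) were bare in the 30 lists. OR56A3 and OR2AG2 led there, with 6 and 4 of the 6 lists, followed by OR52M1 and OR52I2 with 3 each. The cluster OR4C46 to OR5AK2 (chr11:54603069-56989843) held 53 genes, of which 15, 3 and 8 carried H3K27me3 in DMSO and 17, 13 and 6 in doxycycline. There, 30 genes (56.6%) were bare throughout.

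The most marked cluster was OR9Q1 to OR10V1 (chr11:58023881-59713845), with 21 genes. H3K27me3 lay at 15, 8 and 10 of the 21 in DMSO and at 19, 15 and 8 in doxycycline. Only OR5B17 and OR5AN1 had no peak in any list, with the nearest peak of any list 1.55 and 2.24 kb from their start sites. The mean share with H3K27me3 over the 6 libraries was 59.5%, against 13.9% of the other 157 receptor genes. The share was higher in the cluster in 6 of 6 libraries (exact sign-flip permutation test over libraries, two-sided p = 0.0312, the smallest it can give; adjusted p = 0.0781 over the 5 clusters of 7 or more genes, a comparison added after the values were seen). In the same test the OR52B4 to OR10A3 cluster was lower than the other receptor genes in 6 of 6 libraries (8.21 against 26.3%, exact permutation p = 0.0312, adjusted p = 0.0781). Neither passed after adjustment.

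The distal q-arm cluster, OR6X1 to OR8A1 (chr11:123753580-124582942), was marked mainly in the long-estimate lists. Of its 24 genes, 8, 0 and 0 carried H3K27me3 in DMSO and 15, 4 and 2 in doxycycline, and 9 were bare throughout. OR6M1, OR10G6, OR10G9, OR8B4, OR8B8 and OR8A1 had the mark in 3 of 6 lists, the highest number there. The 7 genes of OR4B1 to OR4A47 (chr11:48216810-48489722) carried it at 2, 0 and 1 in DMSO and at 3, 0 and 0 in doxycycline. OR4B1 and OR4C3 had 2 lists each and OR4X1 had 1. The 3 genes of OR4C13 to OR4C45 (chr11:49952391-50033794) and OR2AT4 were bare in all 30 lists, with OR4C45 at 13.6 kb and OR2AT4 at 1.46 kb from the nearest peak.

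**Figure D2:**
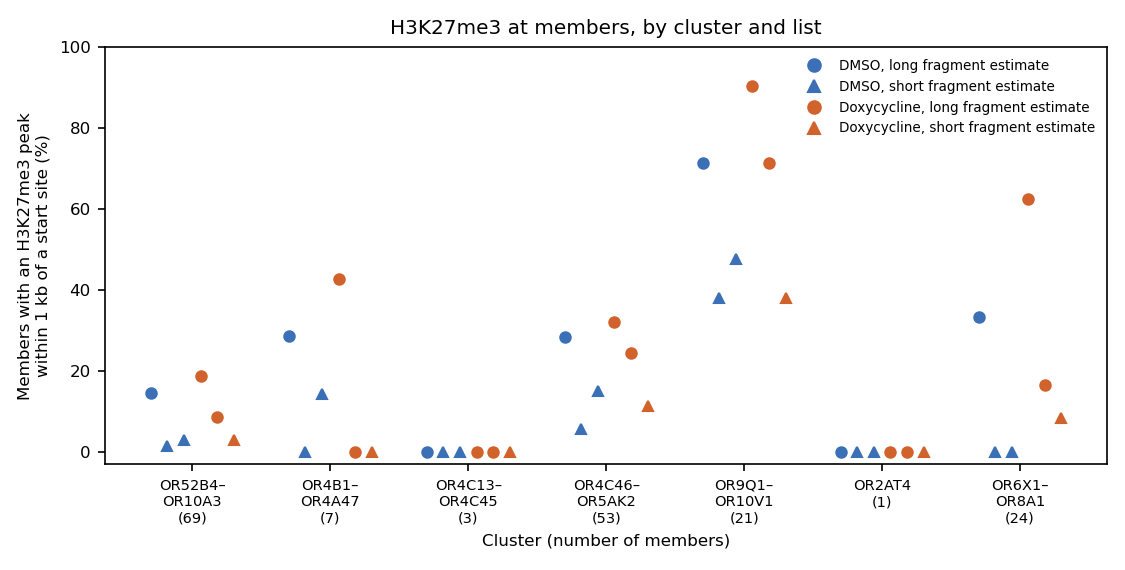
The vertical axis gives the percentage of a cluster's genes with an H3K27me3 peak within 1 kb of a start site, 1 point per library, by treatment (colour) and fragment length estimate (shape). The OR9Q1 to OR10V1 cluster lies highest in every library, between 38.1 and 90.5%, and long-estimate lists lie above short-estimate lists in most clusters.

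H3K27me3 lay at 8 genes in all 6 libraries, 6 of them in the OR9Q1 to OR10V1 cluster. They were OR56A3, OR5AP2, OR9Q1, OR10Q1, OR4D6, OR4D11, OR4D9 and OR10V1. OR9Q1 (chr11:58023881-58181616, plus strand, 2 annotated start sites) had the peak of the highest significance among receptor genes. Its fold enrichment over input was 3.59, 3.18 and 3.30 in DMSO and 2.95, 3.10 and 3.61 in doxycycline, and the −log10 q was 9.01, 2.50 and 2.82 against 4.47, 4.91 and 2.83. The values of the treatments overlapped. OR10Q1, a class II receptor gene, had fold enrichments of 2.87, 2.83 and 2.48 in DMSO and 3.53, 3.19 and 3.56 in doxycycline. Those in doxycycline were higher in 3 of 3 libraries, but fold enrichment depends on the depth and input of each list and was not tested. OR56A3 was the only class I gene of the 8, with folds of 3.25, 2.76 and 2.81 in DMSO and 2.96, 2.73 and 3.20 in doxycycline. These peaks lay near its first annotated start, at chr11:5938751. The RefSeq promoter of OR56A3, at chr11:5942001-5942300, overlapped an H3K27me3 peak in only 1 list. The OR56A3 peak of 11.01, 11.01 and 10.2 kb in the long-estimate lists also reached a start site of TRIM5, an antiviral restriction factor.

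OR4D11 and OR4D9, neighbours of 1 subfamily, lay inside a single broad peak in the long-estimate lists. That peak was 37.6 kb wide in DMSO replicate 1 and 39.7 and 39.5 kb in doxycycline replicates 1 and 2, with fold enrichments of 2.90, 3.02 and 2.82. In the short-estimate lists the strongest peak at either gene was 0.160 to 1.97 kb wide. OR10V1 likewise lay in peaks of 15.5, 24.6 and 23.3 kb in the long-estimate lists, which also reached a start site of STX3, a syntaxin, and in peaks of 0.226 to 0.519 kb in the others. In all, the long-estimate lists held 3, 8 and 3 peaks of 20 kb or more in the clusters and the short-estimate lists none.

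A further 7 genes carried H3K27me3 in 3 of 3 doxycycline libraries. OR8H2, OR5M9 and OR5M10 had it in all but DMSO replicate 2. OR2AG2, OR5D18, OR5M8 and OR5B12 had it in DMSO replicate 1 as well but not in DMSO replicates 2 and 3. With the 8 above, 15 receptor genes (8.43%) carried the mark in 3 of 3 doxycycline libraries, against 23.2% of all protein-coding genes, and 8 (4.49%) in 3 of 3 DMSO libraries, against 20.9%. No receptor gene had a mark in all 3 libraries of one treatment and in none of the other. Of all protein-coding genes, 0.511% did so with the mark present in doxycycline and 0.466% with it present in DMSO.

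The H3K27me3 peaks at receptor genes were of about the median fold enrichment of their lists and below the median in significance. The median fold enrichment of H3K27me3 peaks at receptor genes was 2.22, 2.76 and 2.81 in DMSO and 2.30, 2.36 and 3.16 in doxycycline, where the medians of the whole lists were 2.22, 2.84 and 2.75 and 2.30, 2.34 and 3.13. Their median −log10 q lay at the 29.3rd to 47.6th percentile of the list. A q of 0.001 or less was reached by 18, 14 and 8 of these peaks in the long-estimate lists and by none in the short-estimate lists. With that limit no receptor gene carried H3K27me3 in all 6 libraries, none did where peaks had to cover 50% of the window, and 151 and 134 were bare in the 30 lists.

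A mark other than H3K27me3 was seen at 3 receptor genes, each in 1 or 2 libraries of a mark. OR51E1, a class I receptor that is also expressed outside the nose, had H3K4me1 in DMSO replicate 1 and doxycycline replicate 1 (fold enrichment 2.23 and 2.54) and H3K4me2 in DMSO replicate 1 (3.996). It had no H3K27me3 in any list. OR8J1 had H3K4me1 in the same 2 sets (2.56 and 2.92) and no H3K27me3. OR10AG1 had H3K4me1 in DMSO replicate 3 (2.29) and H3K27me3 in 3 lists, and was the only receptor gene with both marks in 1 set. Neighbouring OR51E2, a class I gene with a known role in prostate cells, was bare in all lists. Its nearest peak lay 4.20 kb from a start site.

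Promoter sequences were taken from RefSeq (GRCh38.p14), from 250 bases before to 50 bases after each start, and matched 133 of the 178 genes. Those of 6 genes are printed. OR9Q1, OR4D6 and OR4D9 are the genes whose 300 bases overlapped an H3K27me3 peak in all 6 lists, OR51E1 had H3K4me1 and H3K4me2 nearby, and OR51V1 and OR4C13 lay 29.4 and 28.4 kb from the nearest peak of the 30 lists. Capitals mark matches, on either strand, to CCCNNGGG (a core of the Olf-1/EBF site), TAATNA or TAATTA (homeodomain cores, the second being contained in the first) or TATAAA (the TATA box), motif types known from receptor promoters of the olfactory epithelium.
OR9Q1, chr11:58023631-58023930, plus strand: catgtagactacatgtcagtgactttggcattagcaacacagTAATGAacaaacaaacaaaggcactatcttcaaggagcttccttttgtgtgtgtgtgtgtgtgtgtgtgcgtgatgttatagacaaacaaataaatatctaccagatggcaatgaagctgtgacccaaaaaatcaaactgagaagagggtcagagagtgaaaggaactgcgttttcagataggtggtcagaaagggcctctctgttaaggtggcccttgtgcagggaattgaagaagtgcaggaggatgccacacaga
OR4D6, chr11:59456711-59457010, plus strand: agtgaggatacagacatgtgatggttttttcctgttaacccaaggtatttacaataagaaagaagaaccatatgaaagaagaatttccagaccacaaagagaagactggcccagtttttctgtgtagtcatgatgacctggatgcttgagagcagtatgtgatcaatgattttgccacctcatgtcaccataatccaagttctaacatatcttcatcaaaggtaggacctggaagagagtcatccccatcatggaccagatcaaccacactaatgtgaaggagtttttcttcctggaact
OR4D9, chr11:59511289-59511588, plus strand: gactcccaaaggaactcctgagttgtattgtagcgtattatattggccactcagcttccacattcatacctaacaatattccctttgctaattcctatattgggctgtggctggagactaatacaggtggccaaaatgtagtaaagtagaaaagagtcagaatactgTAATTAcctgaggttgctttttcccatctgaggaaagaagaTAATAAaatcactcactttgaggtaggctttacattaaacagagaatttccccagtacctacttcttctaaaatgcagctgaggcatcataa
OR51E1, chr11:4643732-4644031, plus strand: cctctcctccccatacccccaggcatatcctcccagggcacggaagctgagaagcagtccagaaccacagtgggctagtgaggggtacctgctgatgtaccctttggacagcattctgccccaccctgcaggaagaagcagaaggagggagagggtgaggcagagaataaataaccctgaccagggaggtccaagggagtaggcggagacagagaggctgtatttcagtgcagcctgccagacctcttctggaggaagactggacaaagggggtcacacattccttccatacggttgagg
OR51V1, chr11:5200633-5200932, minus strand: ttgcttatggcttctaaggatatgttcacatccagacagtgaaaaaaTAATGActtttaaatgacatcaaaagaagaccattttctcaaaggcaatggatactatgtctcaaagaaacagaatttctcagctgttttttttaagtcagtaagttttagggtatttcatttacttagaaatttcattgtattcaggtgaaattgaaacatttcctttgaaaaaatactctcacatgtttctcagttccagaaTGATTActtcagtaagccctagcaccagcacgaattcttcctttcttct
OR4C13, chr11:49952141-49952440, plus strand: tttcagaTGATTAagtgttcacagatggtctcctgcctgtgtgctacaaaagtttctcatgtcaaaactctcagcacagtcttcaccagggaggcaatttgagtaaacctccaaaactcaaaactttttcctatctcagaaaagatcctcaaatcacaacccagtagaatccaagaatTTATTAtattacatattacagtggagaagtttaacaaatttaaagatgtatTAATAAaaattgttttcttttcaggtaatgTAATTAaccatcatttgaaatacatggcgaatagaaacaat

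In these 6, OR4D9 and OR4C13 held TAATTA, OR9Q1 and OR51V1 held TAATNA alone, and OR4D6 and OR51E1 held no match to any of the motifs. Over the 133 promoters, TAATNA was found in 68.4% and TAATTA in 23.3%, where 23.7% and 4.85% of all 34961 promoters of the same length held them. TATAAA was found in 35.3% against 11.5%, and CCCNNGGG in 7.52% against 19.1%. Receptor genes of other chromosomes held TAATNA in 55.7% and CCCNNGGG in 8.11% of 185 promoters. Receptor genes of chromosome 11 with H3K27me3 in any list held TAATNA in 69.4% and TATAAA in 27.4% of 62 promoters, and those without it in 67.6% and 42.3% of 71. The 2 kb around receptor starts are also poorer in G and C than those of other genes (values given with the base composition), and the part of composition in these shares was not tested. Of the 133 RefSeq starts, 64 (48.1%), with OR4D6 and OR51V1 among those printed, fall on an ATG. These starts are also GENCODE starts used for scoring marks. A start of transcription further upstream could lie outside the 1 kb scoring window, and this was not tested.

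H3K27me3 peaks covered 12.6, 1.90 and 2.03% of the bases of the 6 clusters in DMSO and 16.2, 10.1 and 2.14% in doxycycline. They covered 7.66, 2.61 and 2.64% of the rest of chromosome 11 in DMSO and 8.73, 6.85 and 2.60% in doxycycline. The clusters were covered more than the rest in the 3 long-estimate lists and less in the 3 short-estimate lists, and the mean difference of 2.30 percentage points did not pass (exact sign-flip permutation test, p = 0.25). The OR9Q1 to OR10V1 cluster was covered at 26.9, 6.25 and 5.59% in DMSO and 32.7, 26.9 and 6.69% in doxycycline, above the rest of the chromosome in 6 of 6 libraries. The OR4C13 to OR4C45 cluster was covered at 0 to 0.133%. The 4 other marks covered 0.589 to 0.966% of the clusters on average, and each covered less than in the rest of the chromosome in 6 of 6 libraries (exact sign-flip permutation test, p = 0.0312, adjusted p = 0.0391 for each). Their means over the rest were 8.21% for H3K4me1, 2.84% for H3K4me2, 1.596% for H3K4me3 and 5.32% for H3K27ac.

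**Figure D3:**
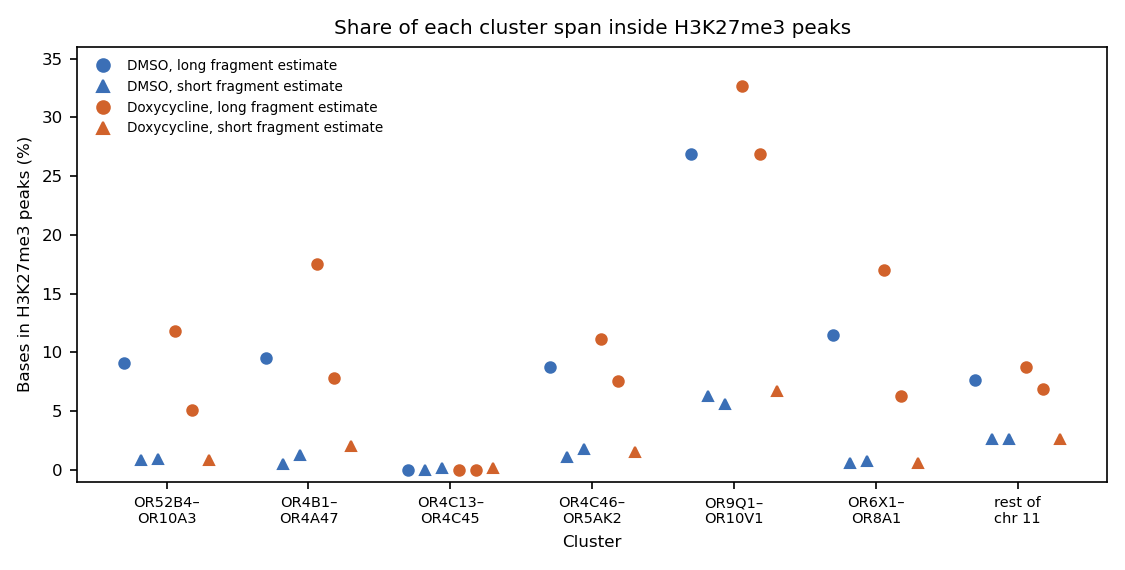
The vertical axis is the percentage of bases inside H3K27me3 peaks for each cluster and for the rest of chromosome 11, 1 point per library, by treatment (colour) and fragment length estimate (shape). The OR9Q1 to OR10V1 cluster is covered at 26.9 to 32.7% in the long-estimate lists and at 5.59 to 6.69% in the short-estimate lists, and the OR4C13 to OR4C45 cluster is close to 0.

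No region of the active marks inside the clusters, with a peak in all libraries of a treatment, lay at a receptor gene. Regions with a peak in 3 of 3 libraries of a treatment were counted. For H3K27ac there were 28 in DMSO, of which 19 lay at a start site of another protein-coding gene and 9 at no coding start. In doxycycline there were 33, with 21 and 12. H3K4me3 had 37 and 34 such regions, 27 and 26 of them at other coding genes and 10 and 8 at no coding start. H3K27me3 had 80 in DMSO, 11 at receptor genes, and 126 in doxycycline, 25 at receptor genes. Short-estimate lists, with their narrower peaks, were more frequent in DMSO than in doxycycline. The part of this in the H3K27me3 counts was not tested. The 64 other protein-coding genes inside the clusters carried H3K4me3 in all 6 libraries at 30 and H3K27ac at 23. Of all protein-coding genes, 71.9 and 64.2% did. Of the 64, 10 were bare in all 30 lists, against 5.60% of all protein-coding genes. The beta-globin genes HBB, HBG1 and HBE1 were bare in all 30 lists, HBD had H3K27me3 in 1 doxycycline list and HBG2 in 2. Over the clusters together, H3K4me3 lay at 46.9 to 51.6% of the neighbours and 0% of the receptor genes. The neighbours with H3K4me3 in all 6 libraries were 20 of 45 in OR52B4 to OR10A3 and 10 of 14 in OR9Q1 to OR10V1. The 3 neighbours in OR4C46 to OR5AK2 and the 2 in OR6X1 to OR8A1 had H3K4me3 in no list, like the receptor genes. The remaining clusters held no neighbours.

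No difference between doxycycline and DMSO passed a test. H3K27me3 lay at 15.5% ± 11.2 (SD, n = 3) of the receptor genes in DMSO and at 23.03% ± 13.8 (SD, n = 3) in doxycycline. The difference of 7.49 percentage points was within the spread of the libraries (exact permutation test, two-sided p = 0.6, adjusted p = 1 over the 5 marks; 3 against 3 libraries cannot go below 0.1). Doxycycline was higher for replicate numbers 1 and 2 and lower for 3. In replicate number 1 the mark was shared at 45 genes, with 5 in DMSO only and 22 in doxycycline only. For number 2, where the DMSO list is of the short-estimate and the doxycycline list of the long-estimate kind, 12 were shared, none were in DMSO only and 26 in doxycycline only. For number 3, both of the short-estimate kind, 11 were shared, 10 were in DMSO only and 7 in doxycycline only.

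Within the kinds of list, the long-estimate counts were 50 in DMSO against 67 and 38 in doxycycline, and the short-estimate counts were 12 and 21 in DMSO against 18 in doxycycline. Averaged over the kinds, the difference was 1.12 percentage points (exact permutation within kinds, p = 1 over 9 assignments). The kind of list is unequally spread over the treatments, with 1 long-estimate list in DMSO and 2 in doxycycline. The pooled difference was 0.187 points without doxycycline replicate 1, 3.09 without DMSO replicate 2, 13.8 without DMSO replicate 1 and 13.95 without doxycycline replicate 3. The bare share was 84.1% ± 11.8 (SD, n = 3) of receptor genes in DMSO and 76.6% ± 14.4 (SD, n = 3) in doxycycline (difference −7.49 points, exact permutation p = 0.6). It turned to 0.187 points higher in doxycycline without doxycycline replicate 1.

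The covered span of the clusters was 5.501% ± 6.12 (SD, n = 3) in DMSO and 9.47% ± 7.04 (SD, n = 3) in doxycycline, a difference of 3.97 points (exact permutation p = 0.5, adjusted p = 1). It was higher in doxycycline for all 3 replicate numbers, and 0.366 points higher within the kinds of list (exact permutation p = 0.778). The share with any of H3K4me1, H3K4me2, H3K4me3 or H3K27ac was 0.562% ± 0.562 (SD, n = 3) in DMSO and 0.375% ± 0.649 (SD, n = 3) in doxycycline (exact permutation p = 1).

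Compared with all 19792 other protein-coding genes, the receptor genes were bare far more often. The bare share averaged 80.3% over the 6 sets against 9.10%, a difference of 71.2 points that held in 6 of 6 sets (exact sign-flip permutation test, p = 0.0312, the smallest it can give). H3K27me3 was found at 19.3% of them on average against 26.98% of other genes. That difference of −7.69 points did not pass (exact sign-flip permutation test, p = 0.125). The receptor genes were below the others in 5 libraries and above them in doxycycline replicate 1, at 37.6 against 31.0%. Each of the 4 other marks was lower at the receptor genes in 6 of 6 libraries (exact permutation p = 0.0312, adjusted p = 0.0391), with 0 to 0.468% on average against 68.4 to 76.5%.

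Receptor genes on other chromosomes had a higher share with H3K27me3 in every library. Of 238 such genes, 63.9, 40.3 and 51.7% had it in DMSO and 67.6, 62.2 and 52.9% in doxycycline, above chromosome 11 in 6 of 6 libraries. The mean difference was −37.2 points for chromosome 11 (exact sign-flip permutation test, p = 0.0312, adjusted p = 0.0521 over the 5 marks, which misses the threshold). With a q of 0.001 or less it was −20.95 points. Active marks were rare there too, with H3K4me3 at 0.42% and H3K27ac at 0 to 0.84%. By chromosome, the mean share was 57.2% of 65 genes on chromosome 1, 58.0% of 27 on chromosome 14, 51.3% of 26 on chromosome 9, 92.9% of 14 on chromosome 17 and 90.8% of 20 on chromosome 19. It was 13.9% of 12 genes on chromosome 3 and 6.14% of 19 on chromosome 6. On chromosome 6, 16 of the 19 genes had windows repeated on alternate contigs. The OR9Q1 to OR10V1 cluster, at 59.5%, was near the level of other chromosomes.

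The other gene families compared were marked to different degrees. Bitter taste receptor genes (24 TAS2R genes) carried H3K27me3 at 20.8% in each library and were bare at 62.5 to 70.8%. Keratin-associated protein genes (94) carried it at 56.4 to 84.0%, and vomeronasal and trace amine receptor genes (10) at 70.0 to 90.0%. The 1139 other protein-coding genes of chromosome 11 carried it at 18.5 to 27.7%.

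**Figure D4:**
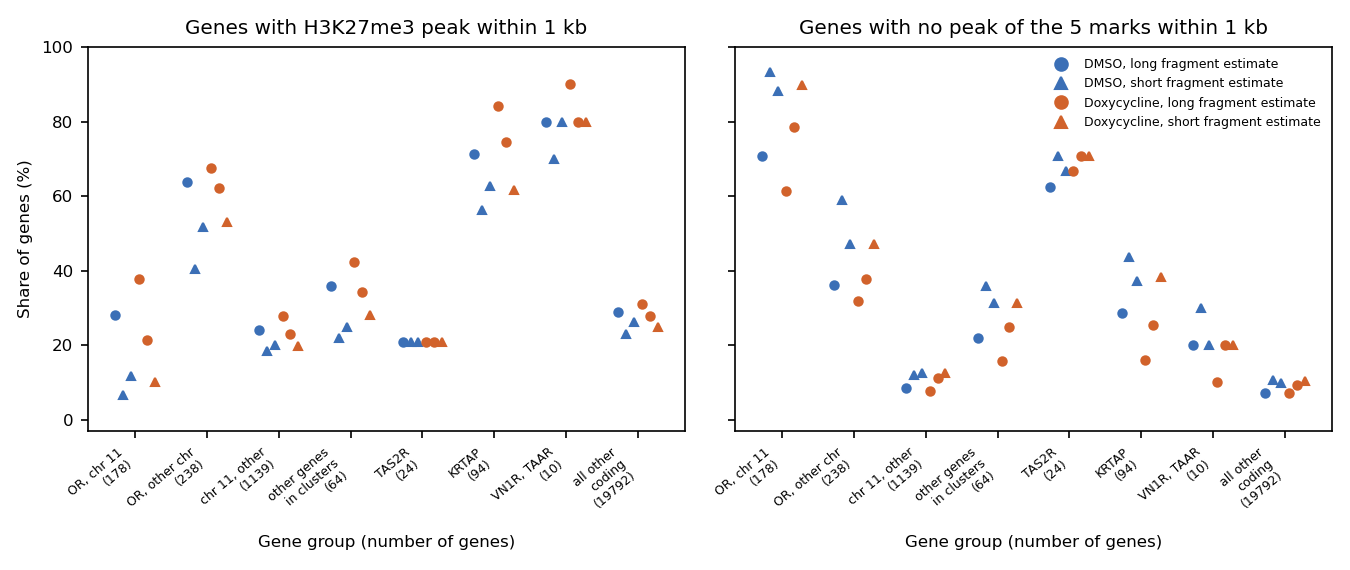
Percentages of genes with an H3K27me3 peak (left) and without a peak of any of the 5 marks (right) within 1 kb of a start site, 1 point per library or set, for gene groups with their number of genes below. The chromosome 11 receptor genes (OR, chr 11) are bare at 61.2 to 93.3%, and in H3K27me3 they lie below the receptor genes of other chromosomes in every library.

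Class I genes had a lower share with H3K27me3 than class II genes in every library, a difference that did not and could not pass after adjustment. Of the 57 class I genes, 14.04, 1.75 and 1.75% had it in DMSO and 17.5, 7.02 and 1.75% in doxycycline. Of the 121 class II genes, 34.7, 9.09 and 16.5% and 47.1, 28.1 and 14.05% did. The difference averaged −17.6 points and class I was lower in 6 of 6 libraries (exact sign-flip permutation test, p = 0.0312, adjusted p = 0.156 over the 5 marks, where 2 marks had no peak at all). It was −4.34 points with a q of 0.001 or less (exact permutation p = 0.25) and −7.67 points where peaks had to cover 50% of the window. All class I genes lie in a single cluster, so class and cluster cannot be told apart across the chromosome. Within that cluster, the mean shares were 7.31% of the 57 class I genes and 12.5% of the 12 class II genes. By family, OR51 was lowest, with 1, 0 and 0 of 23 genes in DMSO and 2, 0 and 0 in doxycycline. OR52 had 6, 0 and 0 of 27 and 7, 3 and 0, and OR56 had OR56A3 alone of 7 in every library. Among class II families of more than 10 genes, OR5 had 16, 3 and 7 of 37 in DMSO and 18, 13 and 6 in doxycycline, OR10 6, 2 and 4 of 16 and 9, 2 and 4, OR4 7, 3 and 4 of 26 and 9, 4 and 4, and OR8 6, 1 and 2 of 25 and 10, 7 and 1.

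Base composition differed between genes with and without the mark. The 2 kb around the start had a median of 38.9% G and C at the chromosome 11 receptor genes, 39.4% at those of other chromosomes and 56.1% at other protein-coding genes. CpG dinucleotides were at 0.157, 0.192 and 0.639 of the number that the base content predicts. Among the 178 genes, the median G and C content was 37.7% for the 101 with no H3K27me3 list, 38.2 to 40.8% for genes with 1 to 5 lists and 43.4% for the 8 with all 6. It did not rise steadily with the number of lists, with 40.8% at 1 list and 38.2% in the 3 genes with 5. The share with H3K27me3 averaged 13.2% in the 101 genes under 40% G and C and 27.3% in the 77 genes at 40% or more. On other chromosomes these shares were 40.5% of 126 genes and 74.4% of 112. Chromosome 11 was lower in 6 of 6 libraries in both classes of composition (−27.3 and −47.1 points, exact sign-flip permutation test, p = 0.0312 each, adjusted p = 0.156 and 0.0521). Neither passed after adjustment. The part of base composition in the peak calls was not tested.

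**Figure D5:**
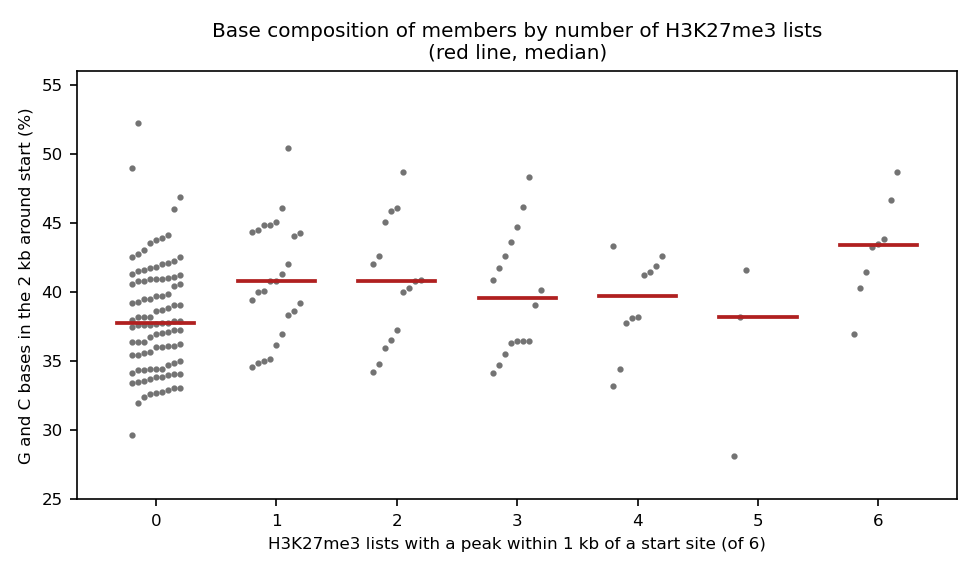
Each point is 1 of the 178 receptor genes, placed by the number of H3K27me3 lists with a peak within 1 kb of a start site and by the percentage of G and C bases in the surrounding 2 kb; red lines are medians. Genes without the mark have a median of 37.7% those with it in 1 to 5 lists 38.2 to 40.8% and those with it in all 6 lists 43.4%, with wide overlap between the columns.

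Some receptor genes had start windows that were repeated on alternate contigs. On the chromosomes alone, at least 85.7% of the 101-base words in the 2 kb around each start occurred once. Where alternate contigs of hg38 were counted too, 16 genes had under 50% of words occurring once. The deposited lists hold 25 to 91 peaks on alternate or unplaced contigs of chromosome 11 per list, so these contigs were in the authors' alignment. They were OR5P2, OR5P3, OR10A6 and OR10A3 at the p end and OR8J2, OR5T1, OR5T2, OR5T3, OR8H1, OR8K1, OR8K3, OR8J1, OR8U1, OR9G1, OR9G4 and OR5G3 in the OR4C46 to OR5AK2 cluster. Of the 16, 14 were bare in all 30 lists, and OR5T3, OR5T2 and OR5P2 lay 78.4, 60.4 and 51.1 kb from the nearest peak. Reads of low mapping quality had been removed, and the part of this in the missing peaks was not tested. Among the 162 remaining genes 85 (52.5%) were bare. Of these with unique windows, OR4A8 lay farthest from any peak, at 39.4 kb. OR51V1 (class I, beside the beta-globin genes), OR4C13 and OR8G1, each the farthest such gene of its cluster, lay at 29.4, 28.4 and 12.5 kb. OR8B2, OR4A47 and OR4S1 were nearer, at 7.30, 6.51 and 1.79 kb, and the median over the bare genes was 5.22 kb.

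Some of the genes that act with the receptors in olfactory neurons carried active marks. Of 11 transduction genes, GNB1 (a G protein beta subunit), ADCY3 (adenylyl cyclase 3) and CNGB1 (a channel subunit) carried H3K4me3 and H3K27ac in all 6 libraries. GNAL, the olfactory G protein alpha subunit, and ANO2, a chloride channel, carried H3K4me3 with H3K27me3 and no H3K27ac. SLC24A4, an exchanger, had H3K27me3 alone, and CNGA2, the main olfactory channel subunit, and STOML3 were bare. OMP, the classical marker of mature olfactory neurons, had H3K4me1 in 6 and H3K27ac in 5 libraries but no H3K4me3. CNGA4, which lies inside the OR52B4 to OR10A3 cluster, carried H3K4me3 in 6, H3K27ac in 5 and H3K27me3 in 4 libraries. Of the trafficking genes, REEP1 carried H3K4me3 and H3K27ac, whereas RTP1 and RTP2 had neither.

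All 11 regulators of receptor choice carried H3K4me3 in all 6 libraries. LHX2 and EMX2, homeodomain factors, and EBF2 carried H3K27me3 as well and had no H3K27ac. EBF3 and EBF4 carried H3K27me3 in 6 libraries with H3K27ac in 6 and 5. LDB1 (the partner of LHX2), EBF1, KDM1A (a histone demethylase), ATF5, DDIT3 and EIF2AK3 carried H3K27ac in 6 libraries and no H3K27me3. Thus 7 of the 11 had H3K4me3 with H3K27ac in all 6 libraries, against 62.4% of all protein-coding genes, and 5 had H3K4me3 with H3K27me3, against 10.3%. Of the 11 transduction genes, 3 and 2 did.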

How the data were processed

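ChIP-seq peak lists for H3K27me3, H3K4me1, H3K4me2, H3K4me3 and H3K27ac, with 3 libraries per treatment, were used as deposited. Per the study's methods, the authors aligned reads to hg38 with Bowtie2 and kept those of high mapping quality. Per the file headers, they called peaks for each library against input with MACS2 (2.1.1.20160309), in broad mode for H3K27me3, H3K4me1 and H3K27ac (q 0.05, weak regions 0.1) and at p 1e-05 for the others. The headers also give single-end mode, and the same input read total for replicates 1 and 3. The methods describe paired-end reads and a q threshold for all marks, and the headers were followed. For each peak the authors deposited the pileup signal in scaled reads, the −log10 p and −log10 q, and the fold enrichment, a ratio of ChIP to the expected background. The 4 input samples were not analysed here.

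From the intervals, genes of GENCODE release 44 were scored by overlap of at least 1 bp with the 1 kb either side of any start site. Reads were not recounted, so a score depends on each list's threshold, depth and fragment estimate. Treatments were compared by exact permutation over 20 assignments of libraries, and gene groups within libraries by exact sign flips (64), both two-sided with Benjamini-Hochberg adjustment and a threshold of 0.05. Overlap scoring was tested on simulated peaks, where 200 of 200 planted genes were found. Alternatives changed the peak threshold, list length, window, overlap, start sites, gene types, cluster gap and libraries. Members and gene lists were chosen with earlier results of these data known. Genes named were those with a mark in 3 of 3 libraries of a treatment. In each cluster, up to 3 with most H3K27me3 lists and up to 2 farthest from a peak were named. Genes tied with these, those carrying another mark, OR51E2, OR4A8 and the genes repeated on alternate contigs were added after their values were seen. Python 3.11.15, numpy 2.4.6 and scipy 1.17.1 were used. One gene of the marker lists is not reported here.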

Additional observations from a re-analysis of the deposited data

How the results depend on the processing

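Of 154 alternative values, 137 kept their direction and side of the threshold, 5 newly passed it, 9 no longer passed and 3 changed sign, and the causes were not tested beyond what is said here. For many of them the side of the threshold was fixed by design. Treatment tests cannot go below 0.1, and sign flips with libraries left out cannot reach 0.05. No treatment difference passed under any alternative run, and none could have passed. With the replicate block (same-numbered DMSO and doxycycline sets paired, exact permutation, smallest p 0.25) the differences were 7.49 points for H3K27me3 (p = 0.5), −7.49 for bare genes (p = 0.5), −0.187 for other marks (p = 1) and 3.97 for covered span (p = 0.25). At a q of 0.001 or less they were 1.12, −0.936 and 1.41 points for H3K27me3, bare genes and covered span. The numbers were not taken to pair the libraries, since H3K27me3 deviations of same-numbered libraries correlated at 0.329, −0.0179 and 0.156. For the other marks the correlations were all positive, from 0.0643 (H3K4me1, replicate 3) to 0.470 (H3K4me2, replicate 1). Leaving out libraries gave 0.187 to 13.95 points for H3K27me3, −14.1 to 0.187 for bare genes, −0.562 to 0.0936 for other marks (positive without DMSO replicate 1) and 0.610 to 7.63 for covered span. Against other genes, H3K27me3 was lower by exact permutation with a q of 0.001 or less (−12.8 points) and with 50% overlap (−11.0), both p = 0.0312. The bare difference was 67.4 to 77.4 points without single replicates or libraries, where the smaller number of sets cannot reach the threshold. Cluster coverage minus the rest of the chromosome was −0.103 points at a q of 0.001 or less. It was 6.04 (adjusted exact permutation p = 0.0312) with genes of any annotated type included in the rule. Class I minus class II ranged from −25.0 to −4.34 points, the latter at a q of 0.001 or less. It was −13.6 with genes of any annotated type included (adjusted exact permutation p = 0.0391). Chromosome 11 minus other receptor genes ranged from −47.1 to −20.95 points and was −40.1 with a 2.5 kb window (adjusted exact permutation p = 0.0391). No gene separated the treatments under any alternative run. The number with H3K27me3 in all 6 libraries was 8 as reported, 7 with the canonical start site only, 2 with lists of equal length and 10 with a 2.5 kb window. The comparisons within kinds of list, by base composition, by unique windows and with other chromosomes were chosen after seeing the data.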
